A study of Mus musculus with 8 samples.

Results

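The IFI200 family is a set of interferon-inducible genes that lie side by side on mouse chromosome 1. The 10 listed members, Ifi203, Ifi204, Ifi206, Ifi207, Ifi208, Ifi209, Ifi213, Ifi214, Mndal and Aim2, were taken by gene symbol from the 53465 gene identifiers in each count file, and all 10 were found. The list itself was chosen from results of the same treatment contrast, so the members' levels and fold changes are given as a description and no test is read from them. The libraries came from regulatory T cells (Tregs) polarized in vitro from CD4+ T cells of spleen and peripheral lymph nodes of wild-type C57BL/6 mice. The cultures held anti-CD3 at 5 µg/mL, anti-CD28 at 0.5 µg/mL, IL-2 at 100 U/mL, TGF-β at 5 ng/mL and blocking antibodies to IL-4, IL-12 and IFN-γ at 10 µg/mL. After 72 hours they were divided, and 4 libraries represent cells given no inhibitor (control) and 4 represent cells given BMS309403, an inhibitor of fatty acid-binding proteins, at 50 µM. The labels give neither a vehicle for the controls nor the length of the exposure, and do not tell if the replicates are separate mice, so errors and p-values below cover variation among these libraries only, possibly just technical. RNA was sequenced as stranded poly(A) libraries with 32923433 to 44644485 assigned counts each.

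Proteins of this family carry a HIN domain that binds DNA, an N-terminal pyrin domain that binds other pyrin proteins, or both. AIM2 is the best characterised member: on double-stranded DNA in the cytosol it recruits the adaptor ASC, encoded by Pycard, and caspase-1 into an inflammasome. Ifi204 encodes p204, a relative of human IFI16 that has been linked to STING signalling in the nucleus and cytosol. The others are less well understood, and several are known as interferon-induced nuclear proteins with effects on growth and transcription. The family has expanded differently in each mammalian lineage, so most of the mouse genes have no simple human counterpart.

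The promoter sequences are shown first because 7 of the 9 members with a window share an element there. It was not found in the windows of Ifi209 and Aim2. RefSeq start-site windows on GRCm38.p6, from 250 bases before to 50 bases after the start, were found for 9 of the 10 members. There was none for Ifi204. Each window was searched on both strands for GAAANNGAAA, the core of the interferon-stimulated response element (ISRE), the promoter element of many interferon-induced genes. It was also searched for the gamma-activated site (GAS), TTCNNNGAA. The ISRE core was present in 7 of 9 members, against 1079 of 27025 genes with a window (3.99%), 387 of 10127 tested genes with a window (3.82%) and 24 of 45 genes of a type I interferon response list (53.3%). The GAS was present in 0 of 9 members, against 9.55% of all genes with a window and 9 of 45 genes of the interferon list (20%). Each of the 7 members had a window with the same 10 letters, GAAATCGAAA, on the gene's own strand. Ifi203 and Mndal have 2 windows each: the other Ifi203 window held no ISRE core, and the other Mndal window held one on the opposite strand, written TTTCTCTTTC on the gene's strand. This exact sequence, picked after the matches were seen, occurred in the windows of 16 of 27025 genes (0.0592%), of which 7 were members. Its first base lay 35 bases before the start in Ifi203, 36 in Mndal, 40 in Ifi206, 41 in Ifi207, 58 in Ifi208, 73 in Ifi213 and 79 in Ifi214. A match describes letters in the window and does not show that a factor binds there.

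The stretches below hold the element in capitals with 20 bases on each side, 5′ to 3′ on the gene's strand, so that the shared and the differing flanks can be compared. Ifi209, whose closest stretch is 1 letter away, and Ifi211, a neighbour that is not on the list, are shown for contrast.
Ifi203 (chr1:173942498-173942547, minus strand): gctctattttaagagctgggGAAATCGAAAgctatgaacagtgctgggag
Ifi206 (chr1:173491329-173491378, minus strand): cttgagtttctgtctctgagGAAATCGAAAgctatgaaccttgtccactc
Ifi208 (chr1:173673587-173673636, plus strand): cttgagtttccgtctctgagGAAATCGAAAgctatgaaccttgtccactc
Ifi214 (chr1:173536007-173536056, minus strand): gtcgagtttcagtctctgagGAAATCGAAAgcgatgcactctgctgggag
Ifi209 (chr1:173630760-173630809, plus strand): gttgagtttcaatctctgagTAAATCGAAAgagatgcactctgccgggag
Ifi207 (chr1:173741821-173741870, minus strand): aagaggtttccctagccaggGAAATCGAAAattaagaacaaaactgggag
Ifi211 (chr1:173913054-173913103, minus strand): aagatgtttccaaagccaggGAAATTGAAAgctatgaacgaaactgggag
The stretches of Ifi206, Ifi207, Ifi208, Ifi209 and Ifi214 lie between the gene models of GENCODE M21, that of Ifi203 in an intron of its own longer model, and that of Ifi211 in an intron of the long Mndal model. Relative to GAAATCGAAA, counted from 1 at its 5′ end, Ifi209 carried G1T, which breaks the ISRE core, and Ifi211 carried C6T, which keeps it. The stretch of Ifi213 was identical to that of Ifi208 over all 50 bases, and Ifi206 matched it at 49 of 50. Mndal's stretch, which lies in an annotated UTR exon, was identical to that of Ifi203 over 50 of 50 bases, whereas Ifi203 and Ifi206 shared 29 of 50. Ifi209 and Ifi214 matched at 45 of 50. In its RefSeq window (chr1:173420354-173420653, plus strand), Aim2 had no stretch closer than 3 letters to the shared element on either strand. That window lies inside the Aim2 model of GENCODE M21, which starts at base 173350879, and bases around that start were not searched. The Mndal windows also lie inside the Mndal model, which starts at base 173942491 on the minus strand, within a window of Ifi203.

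**Figure D1:**
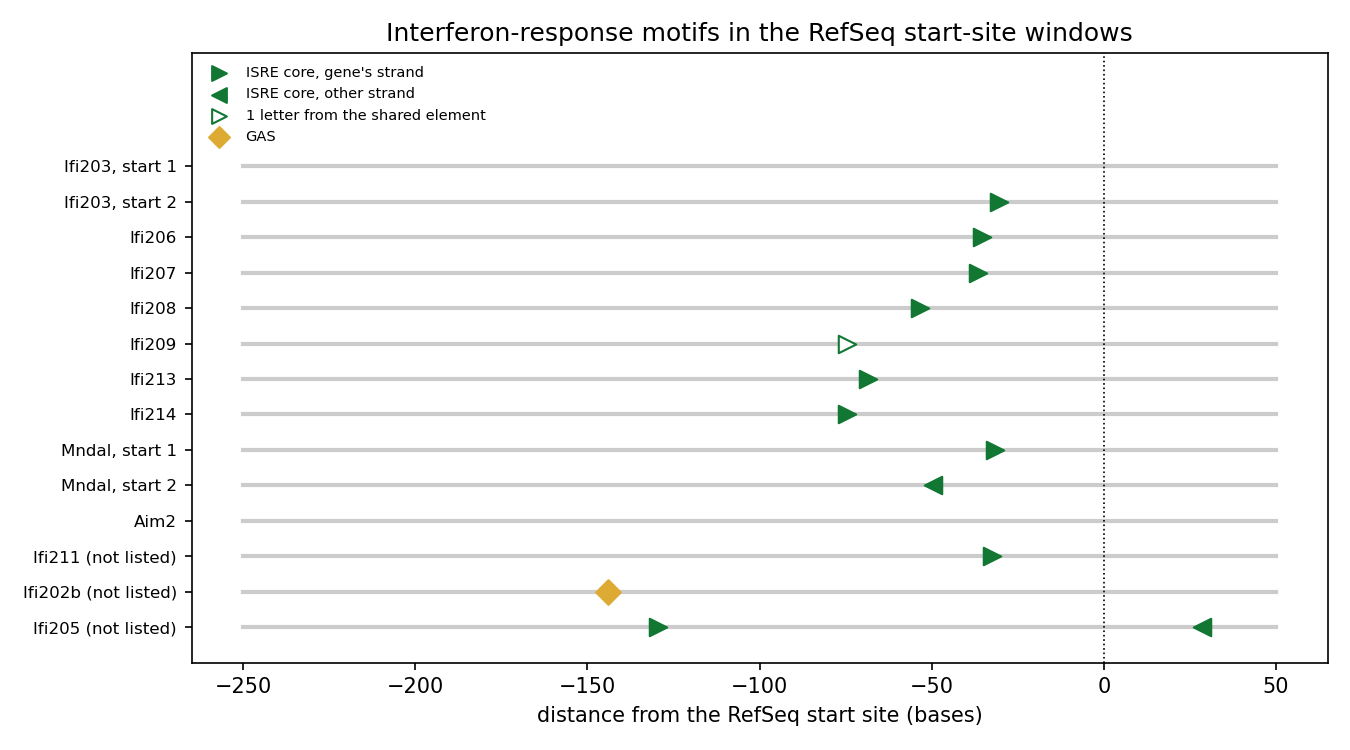
Positions of the ISRE core (filled triangles, pointing right on the gene's strand and left on the other), of the stretch 1 letter from the shared element (open triangle) and of the GAS (diamond) in each RefSeq start-site window; the x axis is the distance from the start in bases. The shared element sits 35 to 79 bases before the start in 7 members, Aim2 has no mark, and the genes marked as not listed are shown for comparison.

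In the count data, 9 of the 10 members were called higher in BMS309403-treated Tregs and 0 lower by edgeR's quasi-likelihood test at an adjusted p under 0.05. Over the 14443 genes tested, 18.7% were called higher and 18.1% lower. In 9 of 10 members every treated library stood above every control library, which held for 17.7% of the tested genes. As the members were chosen from this contrast, nothing is read from these shares. All 10 members passed the filter on low counts, but Ifi204 and Ifi207 passed it only through the treated libraries and so had to differ. Of the other 8 members, 7 were called higher and 0 lower, at a median log2 fold change of 1.98 beside 0.01 over all tested genes. In bulk RNA, more cells that express a gene cannot be told apart from more RNA per cell.

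Ifi203 and Mndal, genes with overlapping models that encode HIN-domain proteins, held most of the family's RNA and had the smallest increases. Ifi203 (ENSMUSG00000039997, chr1:173920407-173942672, minus strand, GRCm38) was at 233, 220, 225 and 269 CPM (counts per 1000000 of the scaled library size) in control replicates 1 to 4 and at 438, 461, 407 and 503 CPM in treated replicates 1 to 4. All treated libraries were above all controls. The means were 237 ± 22.1 and 452 ± 40.4 CPM (SD, n = 4 each), a log2 fold change of 0.93 (SE 0.07, 95% interval 0.75 to 1.12). Mndal (ENSMUSG00000090272, chr1:173849126-173942491, minus strand) was at 157, 152, 156 and 172 CPM in the controls and 275, 311, 258 and 340 CPM in the treated libraries. The groups did not overlap, and the mean went from 159 ± 8.93 to 296 ± 36.8 CPM, a log2 fold change of 0.89 (SE 0.08, 95% interval 0.70 to 1.09). The ratio of the pair hardly moved. Mndal had 67.4 ± 2.41 counts per 100 of Ifi203 in the controls and 65.3 ± 2.61 in the treated libraries, with overlapping ranges. The annotated exons of the pair share 37 bases on the same strand, 0.552% of those of Ifi203.

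Ifi206, Ifi208 and Ifi209 formed a middle tier and were each about 3 to 5 times higher after treatment. Ifi208, also named Pydc3, was at 27.5, 17.5, 20.4 and 19.5 CPM in the controls and at 99.6, 97.0, 94.8 and 106 CPM in the treated libraries. The lowest treated library was more than 3 times the highest control. Its log2 fold change was 2.23 (SE 0.11, 95% interval 1.97 to 2.50), a 4.70-fold difference (ENSMUSG00000066677, chr1:173673675-173698395, plus strand). Ifi206 (ENSMUSG00000037849, chr1:173468485-173491041, minus strand) was at 25.8, 16.2, 16.9 and 17.8 CPM in the controls and at 87.5, 82.4, 82.1 and 91.3 CPM in the treated libraries. Control replicate 1 was the highest control for both genes, and the log2 fold change of Ifi206 was 2.17 (SE 0.12, 95% interval 1.88 to 2.46). Ifi209 (ENSMUSG00000043263, chr1:173630917-173647928, plus strand), also named Pyhin1, was at 14.3, 12.4, 13.2 and 13.9 CPM in the controls and at 44.1, 43.8, 45.1 and 53.1 CPM in the treated libraries. Its groups did not overlap, and the log2 fold change was 1.79 (SE 0.07, 95% interval 1.61 to 1.97). Of these 3, Ifi209 had the smallest change. Among the members with a window, Ifi209 and Aim2 held the ISRE core in none. Ifi203 and Mndal held it and had smaller changes than Ifi209, at log2 fold changes of 0.93 and 0.89. The interval of Ifi209 overlaps that of Ifi206 and touches that of Ifi208, and a difference between the members was not tested.

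Ifi213 and Ifi214 were low in control Tregs. Ifi213 (ENSMUSG00000073491, chr1:173566283-173599274, minus strand), also named Pydc4, was at 6.72, 4.94, 6.22 and 6.31 CPM in the controls and at 29.0, 37.6, 32.3 and 43.0 CPM in the treated libraries. The groups were far apart, with means of 6.05 ± 0.769 and 35.5 ± 6.19 CPM. The log2 fold change was 2.56 (SE 0.13, 95% interval 2.24 to 2.88), or 5.90-fold. Ifi214 (ENSMUSG00000070501, chr1:173519717-173535957, minus strand) was at 3.90, 2.83, 2.02 and 2.97 CPM in the controls and at 12.2, 14.3, 12.7 and 16.8 CPM in the treated libraries. It did not overlap between the groups either, and its log2 fold change was 2.26 (SE 0.16, 95% interval 1.87 to 2.65).

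Ifi204 and Ifi207 were close to undetected in control cells and were present at low levels after treatment. Ifi204 (ENSMUSG00000073489, chr1:173747293-173766943, minus strand) had 9, 6, 1 and 2 counts in control replicates 1 to 4 and 79, 72, 63 and 99 counts in the treated ones. Its mean CPM was 0.123 ± 0.113 in the controls and 1.92 ± 0.349 in the treated libraries. The fitted log2 fold change of 3.97 (SE 0.35) has a wide interval, 3.10 to 4.84, and was 4.61 without control replicate 1. Ifi207 (ENSMUSG00000073490, chr1:173723427-173741747, minus strand) had 0, 1, 4 and 0 counts in the controls and 24, 22, 18 and 24 in the treated libraries. That is 5 counts against 88 over the groups. The fitted log2 fold change, 3.90 (SE 0.53, 95% interval 2.61 to 5.18), was 5.54 without control replicate 3, which holds 4 of the 5 control counts. The absolute level in treated cells was 0.541 ± 0.0652 CPM.

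Aim2, the inflammasome sensor at the edge of the cluster, was the exception. It (ENSMUSG00000037860, chr1:173350879-173466040, plus strand) was at 20.3, 23.3, 26.4 and 29.7 CPM in control replicates 1 to 4 and at 20.4, 23.7, 22.9 and 25.9 CPM in treated replicates 1 to 4. The groups overlapped almost completely, with means of 24.9 ± 4.05 and 23.2 ± 2.28 CPM. The log2 fold change was -0.10 (SE 0.11), and its 95% interval of -0.36 to 0.16 corresponds to a ratio of treated to control between 0.777 and 1.12. The total was 3765 counts in the controls and 3788 in the treated libraries, so counting depth did not limit this value. Between libraries of the same replicate number the log2 ratios were 0.01, 0.03, -0.20 and -0.20.

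**Figure D2:**
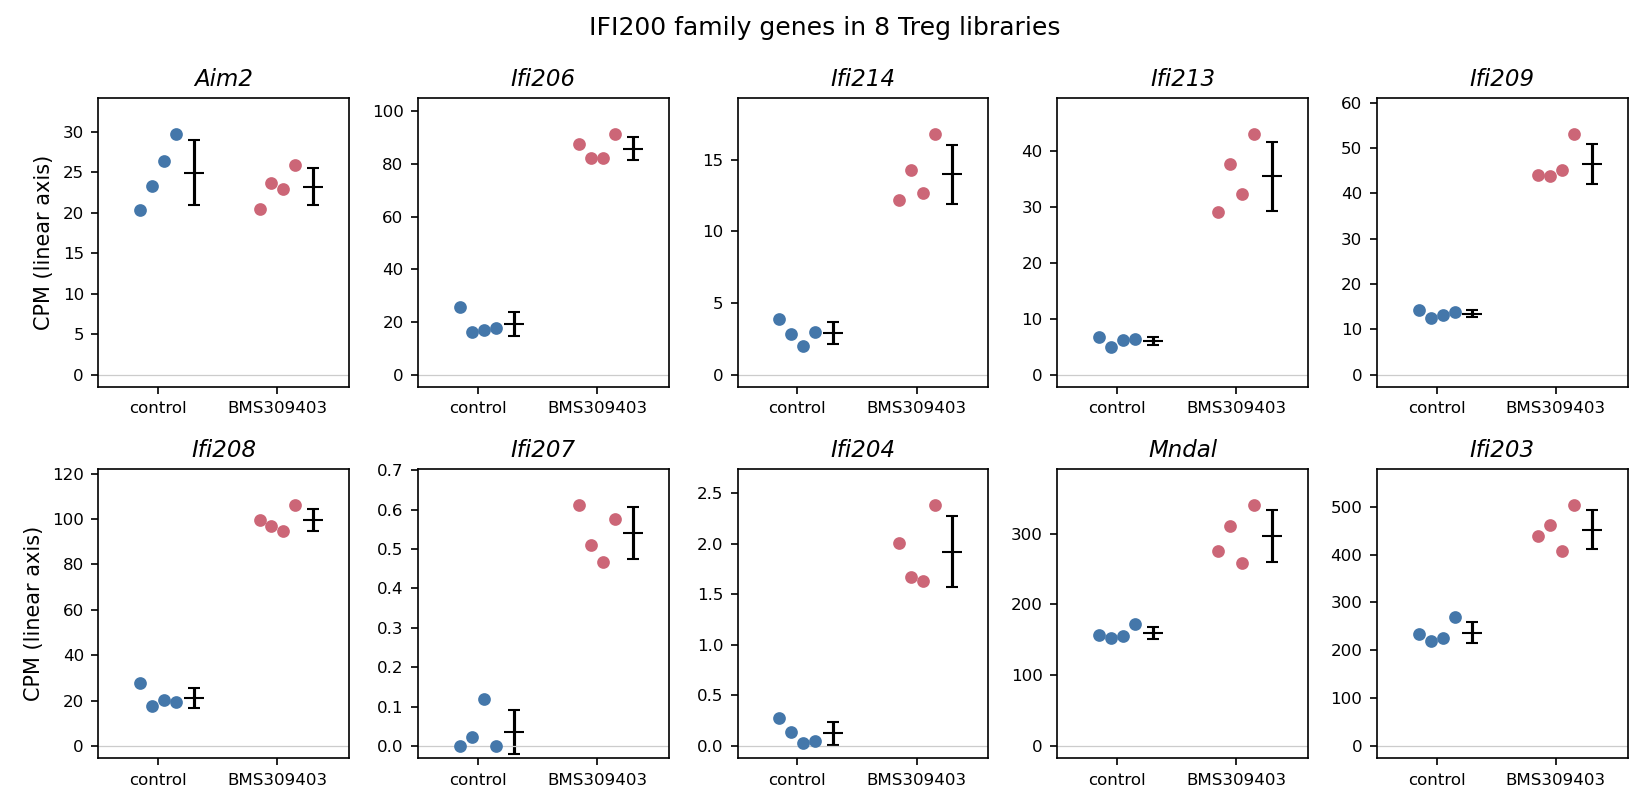
CPM of each member in the 4 control and 4 BMS309403 libraries on linear axes, in chromosomal order; points are libraries in replicate order, and bars beside them are the mean and SD. The groups are apart for 9 members, and for Aim2 the controls at 20.3 to 29.7 CPM span the treated libraries at 20.4 to 25.9 CPM.

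Among the listed members, Aim2 lay at one end of the cluster, Mndal and Ifi203, with the smallest increases, at the other, and those with the largest increases between them. Between the outermost members the GENCODE M21 annotation holds 9 other genes, of which 3 passed the filter. Ifi211, a protein-coding family gene also named Mnda that is not on the list, was at 2.48, 1.57, 1.81 and 2.25 CPM in the controls and at 8.22, 8.19, 8.72 and 10.6 CPM in the treated libraries (ENSMUSG00000026536, chr1:173896345-173913046, minus strand). All treated libraries were above all controls, with a log2 fold change of 2.15 (SE 0.14, 4.43-fold, edgeR adjusted p = 4.87e-07). Ifi211 lies inside the Mndal model and next to Ifi203, so the order above holds for the listed members only. The pseudogenes Ifi203-ps and Gm18752 passed the filter only through the treated libraries, so they had to differ and are given as values. Ifi203-ps had 5, 4, 8 and 3 counts in the controls and 42, 51, 46 and 74 in the treated libraries, a fitted log2 fold change of 3.26 (SE 0.32). Gm18752 had 2, 3, 4 and 1 counts in the controls and 14, 11, 18 and 28 in the treated libraries, a fitted value of 2.66 (SE 0.46). The other 6 had at most 2 counts in either group, among them Cadm3, which encodes a cell adhesion molecule and overlaps the Aim2 end, with 1 count in the controls and 2 in the treated libraries.

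The genes just outside the cluster were at or near 0 counts. The 5 protein-coding genes beyond Aim2, Olfr1404, Fcer1a, Olfr418, Mptx2 and Ackr1, were listed at 0 in all 8 libraries. Beyond Ifi203, Ifi202b had 0 counts in the controls and 2 in the treated libraries, and Ifi205 had 5 and 9. Ifi202b is known as a lupus-associated gene whose expression differs between inbred strains, and Ifi205 encodes a HIN-domain protein of myeloid cells. The window of Ifi205 holds the ISRE core 134 bases before the start, with the same C6T letter as Ifi211, and Ifi205 stayed below the filter. The 3 olfactory receptor genes that follow, Olfr433, Olfr432 and Olfr430, had at most 7 counts in a group.

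**Figure D3:**
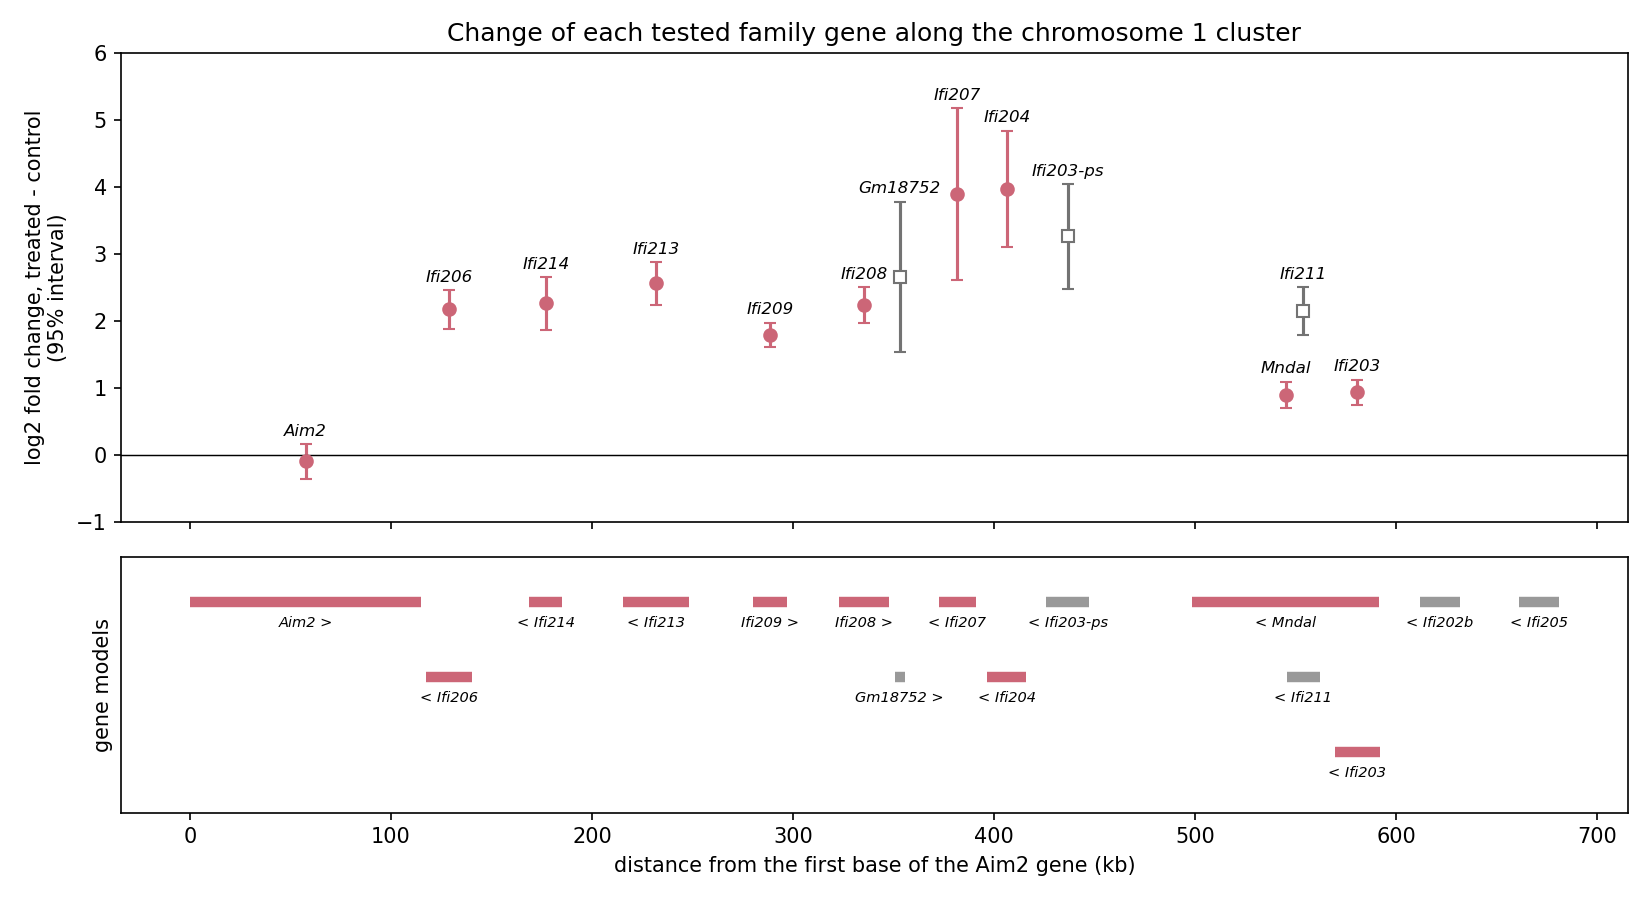
Upper part: fitted log2 fold change (treated minus control) with its 95% interval for every tested family gene, placed at the middle of its gene model; filled circles are listed members and open squares genes not on the list. Lower part: gene models with arrows for the strand, in kb from the first base of Aim2. Aim2 sits at -0.10, Mndal and Ifi203 at 0.89 and 0.93, and the other tested genes from 1.79 to 3.97. The unlisted Ifi211, at 2.15, lies between Mndal and Ifi203.

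Levels of different members are compared per kilobase of merged exons (CPM per kb), since the exon lengths differ. In control Tregs the order was Mndal at 43.9 ± 2.46, Ifi203 at 35.3 ± 3.30, Aim2 at 7.11 ± 1.16, Ifi206 at 6.28 ± 1.46, Ifi208 at 4.04 ± 0.828 and Ifi209 at 3.80 ± 0.234 CPM per kb. Below 1 CPM per kb followed Ifi213 at 0.884 ± 0.112, Ifi214 at 0.362 ± 0.0951, Ifi204 at 0.0346 and Ifi207 at 0.0103. Aim2 and Ifi206 were neighbours whose control libraries overlapped (5.79 to 8.48 and 5.31 to 8.45), as did Ifi208 and Ifi209 (3.33 to 5.23 and 3.50 to 4.03). Ifi204 and Ifi207 overlapped as well. In treated Tregs the order was Mndal at 81.6 ± 10.1, Ifi203 at 67.4 ± 6.03, Ifi206 at 28.1 ± 1.45, Ifi208 at 18.9 ± 0.892, Ifi209 at 13.1 ± 1.25 and Aim2 at 6.64 ± 0.653 CPM per kb. Mndal and Ifi203 did not overlap in the controls (41.9 to 47.5 and 32.8 to 40.1) but did in the treated libraries (71.2 to 93.8 and 60.7 to 75). Aim2 moved from rank 3 to rank 6 without a change of its own level beyond its spread, and its treated libraries overlapped those of Ifi213 at 5.19 ± 0.905. With the longest transcript as the length, treated Ifi208 (33.2) came above Ifi206 (28.2) and treated Ifi213 (11.5) above Aim2 (8.18).

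**Figure D4:**
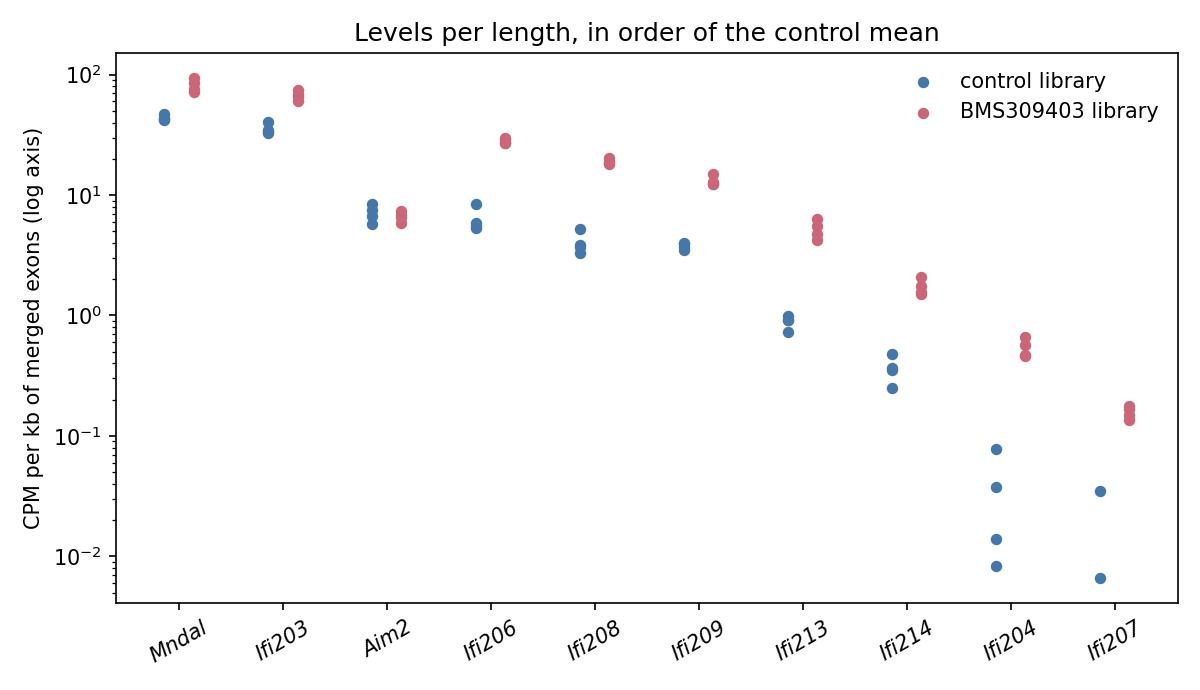
CPM per kb of merged exons on a log axis for each member in order of its control mean; blue points are control libraries and red points BMS309403 libraries, and 2 control libraries of Ifi207 at 0 are not drawn. The gap between the groups differs by member, for example Mndal at 43.9 and 81.6 and Ifi204 at 0.0346 and 0.540, and Aim2 is the one gene whose points overlap.

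The family's summed level was higher after treatment and its makeup differed. The 10 members together were at 489, 449, 466 and 532 CPM in the controls and at 1008, 1072, 957 and 1182 CPM in the treated libraries, a ratio of means of 2.18. Without Ifi203 and Mndal the sum went from 87.9 ± 8.98 to 307 ± 21.7 CPM, a ratio of 3.49. Ifi203 and Mndal made up 81.8% ± 1.48 of the family's CPM in the controls and 70.9% ± 1.04 in the treated libraries, with no overlap between the groups. The share of Aim2 went from 5.14% ± 0.694 to 2.20% ± 0.150.

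Within the groups, some members varied together and others did not. With the group means removed, the 45 pairs of members had correlations of log2 CPM over the 8 libraries from -0.77 to 0.96 with a median of 0.40, and 13 were below 0, as a description. The highest were Ifi206 with Ifi208 (r = 0.96) and Ifi203 with Mndal (r = 0.92). The lowest were Ifi207 with Ifi214 (r = -0.77) and Ifi204 with Aim2 (r = -0.70), both involving a gene of few control counts. Control replicate 1 was the highest control library for Ifi204, Ifi206, Ifi208, Ifi209, Ifi213 and Ifi214, but it was the lowest for Aim2. Treated replicate 4 was the highest treated library for every member except Ifi207. The spread of Ifi206 and Ifi208 was 23.3% and 20.5% of the mean in the controls and 5.16% and 4.72% in the treated libraries. By the fixed rule, the genes outside the family whose within-group pattern was most like the mean of the members were Sgcb (r = 0.984), Hsf1 (r = 0.948), Prim1 (r = 0.947), Hnrnpdl (r = 0.947) and Pus3 (r = 0.941), over 8 libraries. Their treatment log2 fold changes ranged from -0.13 to 0.52. They are the extremes of many genes over only 8 libraries, so no conclusion on likeness and response is drawn from them. The mean over members gives the low counts of Ifi204 and Ifi207 the same weight as the others.

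Some members share sequence, which limits how well reads can be assigned to one of them. The share of each gene's distinct 50-base words, taken from its GENCODE M21 transcripts, that also occur in another family gene was 33.4% in Ifi209, 25.6% in Ifi206, 20.8% in Ifi208, 19.2% in Ifi204, 17.7% in Mndal, 15.6% in Ifi213, 14.5% in Ifi214, 12.2% in Ifi203 and 5.39% in Ifi207. Aim2 shared 0 words with the family. At 75 bases the shares ranged from 1.53% in Ifi207 to 23.1% in Ifi209. The strongest ties were between Ifi209 and Ifi214 (1182 words), Ifi208 and Ifi213 (951 words), the unlisted Ifi205 and Ifi211 (774 words), Ifi203 and its pseudogene Ifi203-ps (610 words), Ifi204 and Ifi211 (521 words), and Ifi206 and Ifi208 (319 words). Ifi211 shared 72.8% of its words. How reads that fit several places were counted is not stated, and the part of shared reads in the members' values was not tested. The ratio of Ifi214 to Ifi209 was 21.7 ± 4.98 counts per 100 in the controls and 30 ± 2.44 in the treated libraries, and that of Ifi213 to Ifi208 was 28.9 ± 3.40 and 35.7 ± 5.22. In both pairs the partner with the lower level had the higher ratio in treated cells, with overlap between the groups for Ifi213 to Ifi208.

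**Figure D5:**
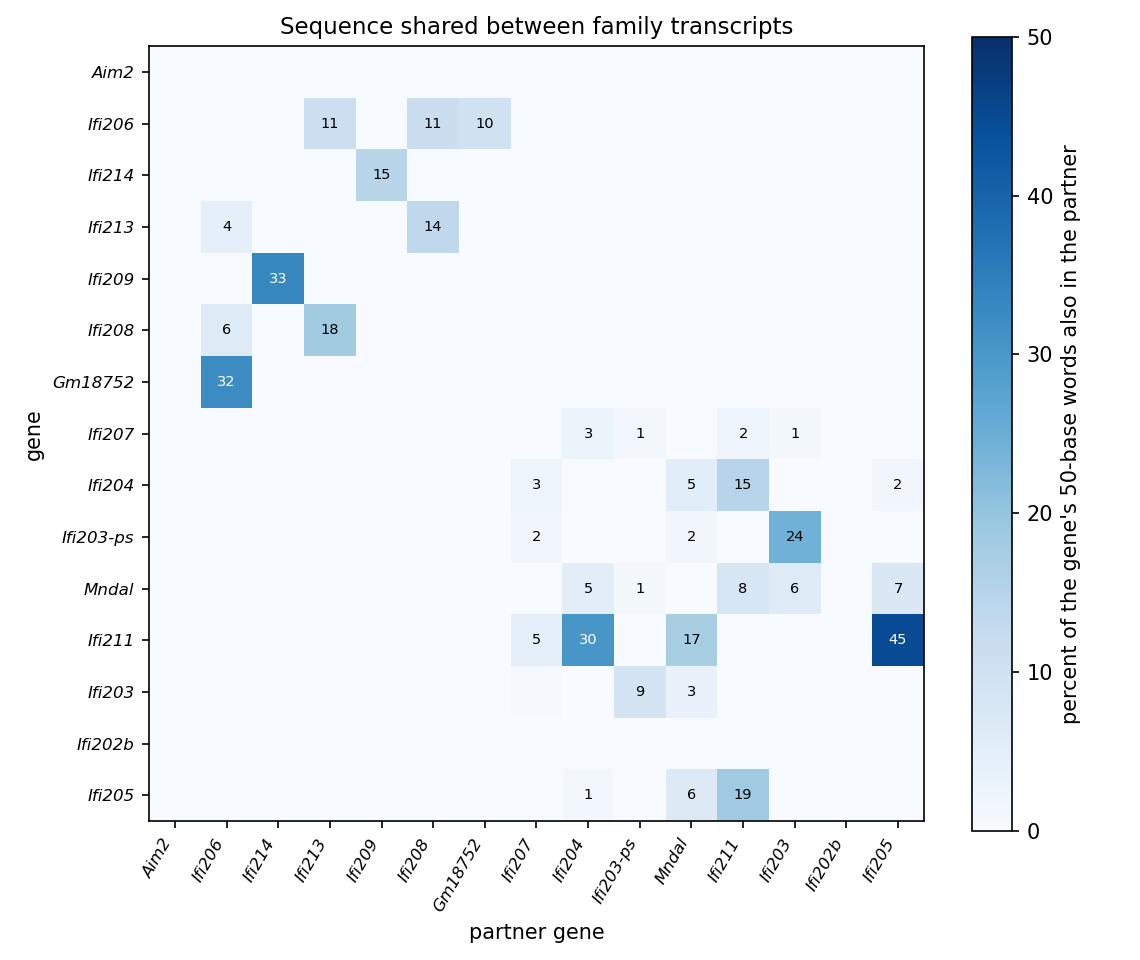
Percent of each gene's 50-base words (rows) that also occur in a partner gene (columns), in chromosomal order; values of at least 1% are printed in the cells. Printed values join adjacent and non-adjacent genes, reach 33% from Ifi209 to Ifi214 and 45% from Ifi211 to Ifi205, and none is printed for Aim2.

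Genes that work with the family were described from lists fixed with earlier results of these data known, so their counts are not independent of them. The shares to set beside each count are the 18.7% of all tested genes called higher and the 18.1% called lower. Of 16 tested genes of the AIM2 inflammasome and pyroptosis list, 9 were called higher and 2 lower, with a median log2 fold change of 0.21 beside 0.01 over all genes. Pycard, the adaptor that AIM2 recruits, fell from 70.8 ± 2.40 to 58.6 ± 2.59 CPM, a change of -0.27 on the log2 scale (SE 0.05, adjusted p = 0.000638 by edgeR). Gsdmd, which encodes the pore-forming substrate of inflammatory caspases, rose from 25.7 ± 0.753 to 40.5 ± 4.15 CPM (1.58-fold, edgeR adjusted p = 1.73e-05). Casp1 rose from 1.03 ± 0.156 to 1.95 ± 0.342 CPM (edgeR adjusted p = 0.00161), still a low level. Casp4, which encodes a caspase that senses lipopolysaccharide, rose from 2.13 ± 0.0987 to 6.08 ± 0.955 CPM (2.85-fold, edgeR adjusted p = 3.12e-06). Il1a, which encodes a cytokine, rose from 0.640 ± 0.430 to 1.27 ± 0.383 CPM (edgeR adjusted p = 0.0436), with overlap between the groups. Its receptor gene Il1r1 was at 0.176 and 0.420 CPM and passed the filter only through the treated libraries. Il1r1 is 1 of the 9 called higher and had to differ. The cytokine genes Il1b and Il18 were below the filter, at 0.251 and 0.179 CPM in treated cells.

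Of 28 tested genes of the cytosolic DNA sensing and STING list, 12 were called higher and 7 lower, beside 18.7% and 18.1% of all tested genes, at a median of 0.02 on the log2 scale. The transcription factor gene Irf7 rose most, from 29.6 ± 2.91 to 159 ± 10.4 CPM (5.39-fold, edgeR adjusted p = 1.19e-09), followed by Zbp1, which encodes a nucleic acid sensor (2.39-fold, edgeR adjusted p = 1.28e-07). Trim56, which encodes a ubiquitin ligase, rose 1.76-fold (edgeR adjusted p = 2.36e-06). Cgas, which encodes the enzyme that makes cGAMP from cytosolic DNA, rose from 13.2 ± 1.80 to 21.3 ± 1.12 CPM (edgeR adjusted p = 7.5e-05). Its target STING, listed as Tmem173, rose only 1.17-fold, from 261 ± 24.7 to 306 ± 18.4 CPM (edgeR adjusted p = 0.019), and its groups overlapped. The kinase gene Tbk1 and the factor gene Irf3 had log2 fold changes of 0.17 and 0.11 (edgeR adjusted p = 0.0108 and 0.0431). The DNA-binding chromatin genes Hmgb1 and Hmgb2 were among those called lower, at log2 fold changes of -0.34 and -0.24.

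Stat2 and Irf9, which encode factors that act on the ISRE, also rose. Of 17 tested genes of the type I interferon signalling list, 8 were called higher and 4 lower, beside 18.7% and 18.1% of all tested genes, and the 4 became 2 when treated replicate 2, 3 or 4 was left out. Usp18, which encodes an inhibitor of interferon receptor signalling, rose most, 7.87-fold (edgeR adjusted p = 1.61e-08), and Socs1, another inhibitor gene, 1.67-fold (edgeR adjusted p = 0.000763). Stat2 rose from 137 ± 8.04 to 300 ± 23.7 CPM (edgeR adjusted p = 7.65e-08) and Irf9 from 97.5 ± 3.92 to 143 ± 4.19 CPM (edgeR adjusted p = 1.29e-06). The receptor genes Ifnar1 and Ifnar2 did not pass the test, with log2 fold changes of 0.07 and -0.04. Ifnb1, which encodes interferon beta, was below the filter at 0.0140 and 0.0678 CPM. Of 59 tested genes of the type I interferon response list, 52 were called higher and 0 lower, at a median of 1.31 on the log2 scale. The largest in the response list was Mx1, from 2.80 ± 0.518 to 46.9 ± 5.45 CPM (16.9-fold), followed by Rsad2 (13.2-fold), Ifi44 (10.9-fold) and Cxcl10 (10.5-fold at 3.31 CPM in treated cells). Cxcl10 counts among the 52, although not all its control libraries met the filter's minimum. Of 14 genes linked to p53, p21 and growth control, with which the family has been connected, 6 were called higher and 0 lower, and the changes were small: Myc rose 1.44-fold, Nr4a1 1.30-fold, Nfkb1 1.26-fold and Cdkn1a, which encodes p21, 1.25-fold (edgeR adjusted p from 4.68e-05 to 0.00114).

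Of the 9 genes outside the list whose windows hold GAAATCGAAA, 5 were tested, and 3 were called higher and 0 lower, beside 18.7% and 18.1% of all tested genes. Ddx58, which encodes the RNA sensor RIG-I, rose from 24.2 to 78.1 CPM (edgeR adjusted p = 4.67e-10) and Parp11 from 35.5 to 63.8 CPM (edgeR adjusted p = 5.99e-06). Ripk1, which encodes a death-receptor kinase, had a log2 fold change of 0.30 (edgeR adjusted p = 0.00211). Pnrc1 and Serpinb6a did not pass the test, with log2 fold changes of -0.09 and -0.06. A link between the element and these changes was not tested.

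The libraries carried the markers of the labelled cell type. All 12 Treg and T cell markers were above 1 CPM in both groups, with a summed level of 6707 to 7250 CPM in the controls and 7740 to 8142 CPM in the treated libraries. The largest single difference was that of Il2ra, at 2562 ± 300 and 3412 ± 205 CPM. In this list 5 genes were called higher, Foxp3 among them at 950 ± 55.6 and 1247 ± 15.3 CPM, and 5 lower (Cd3e, Cd3d, Cd3g, Trac and Lck, with log2 fold changes from -0.46 to -0.20), at a median of 0.00. Because several members are known from myeloid cells, 14 macrophage, monocyte and neutrophil markers were examined, of which 3 were above 1 CPM. Their sum was 25.6 to 40.1 CPM in the controls and 85.7 to 103 CPM in the treated libraries, and without Mpeg1 it was 5.30 to 7.17 and 3.80 to 7.06 CPM. The difference in the sum was thus carried by Mpeg1. Of the others, Cd68 was at 2.62 CPM in the controls and 2.64 CPM in treated cells, Lyz2 at 1.41 and 1.24, Adgre1 at 0.565 and 0.137, Csf1r at 0.117 and 0.200, Cd14 at 0.141 and 0.276, and Fcgr1 at 0 and 0.0180. Of 8 dendritic cell markers 2 were above 1 CPM, and the sum was 14.2 to 16.3 CPM in the controls and 22.8 to 28 CPM in the treated libraries, with Cd209a at 0. Those 2 were Zbtb46, at 3.6 ± 0.252 and 8.89 ± 1.68 CPM, and Tcf4, at 11.1 ± 0.686 and 15 ± 1.06 CPM. Both were called higher, and no other gene of that list was called. Of 8 B cell markers 4 were above 1 CPM, and the sum was 344 to 435 and 277 to 297 CPM, of which all but at most 9.79 CPM was Ighm. In that list Ighm and Cd79b were called lower and no gene higher. Of 7 CD8 T cell and NK cell markers 4 were above 1 CPM at 18.7 to 23.1 and 21.2 to 25.3 CPM in sum, with Ncr1 and Klra8 at 0. Eomes was the only one called, higher at 1.77 ± 0.715 and 3.48 ± 1.11 CPM, with overlap between the groups. Of 9 erythroid, platelet and stromal markers 2 were above 1 CPM, with sums of 114 to 125 and 99.4 to 106 CPM. Nearly all of this was Pecam1, at 117 ± 4.37 and 99.1 ± 3.07 CPM, which was called lower. The other was Itga2b, at 1.86 and 2.53 CPM, and Hbb-bs and Col3a1 were at 0. The part of the markers that moved in the members' values was not tested.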

How the data were processed

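The authors deposited raw counts per gene for 8 libraries, as 1 file each. The submitters' processing notes name STAR, featureCounts, DESeq2, deepTools and GRCm38, and the strand and multi-mapping settings are not given in the sources used here. The members and gene lists were chosen with earlier results of these data known. Of 53465 identifiers, 53360 had a GENCODE M21 symbol, and 2 aliases in the lists (Mb21d1, Sting1) matched none. Identifiers without a symbol held 0.00631% of the counts.

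Counts were filtered (filterByExpr), scaled by TMM and fitted over all 14443 genes with edgeR 4.0.16 in R 4.3.3 (quasi-likelihood test, Benjamini-Hochberg adjustment, threshold 0.05). The script was tested on simulated data. CPM use TMM-scaled library sizes, and levels are per merged exon length. Alternatives were RLE scaling, DESeq2 1.42.0, no filter, a replicate block, and each library left out. The main fit did not pair the libraries, since the labels do not say what a replicate number marks. The replicate block paired libraries of equal number. With group means removed, these pairs correlated at 0.384, 0.145, 0.106 and 0.264. Each control replicate correlated best with the treated replicate of its number. Each treated replicate did so in return except treated replicate 2, which correlated best with control replicate 4. The text names all members, every tested gene between them, in each list up to 4 called genes by size of change plus core partners such as Pycard and Cgas (1 of them is not reported here), and the 5 genes most like the members within groups. Genes holding the shared promoter element were added after the matches were seen. Promoter windows come from RefSeq (GRCm38.p6). Protein sequences were not used here.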

Additional observations from a re-analysis of the deposited data

Results flagged for a closer look

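In the 20 groups of 4 libraries formed by the members' CPM, 2 held a library whose gap to the nearest other exceeded Dixon's 95% critical value as a share of the group's range. Chance gives about 1 in 20. Ifi206 was at 25.8 CPM in control replicate 1, with the other controls between 16.2 and 17.8 CPM (gap over range 0.837). Ifi209 was at 53.1 CPM in treated replicate 4, with the other treated libraries between 43.8 and 45.1 CPM (gap over range 0.861). Both lie on the high side of their group, and neither brings the groups of its gene into overlap.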

How the results depend on the processing

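Under all 12 alternatives (RLE scaling, DESeq2, no filter, the replicate block and 8 fits without 1 library each), 9 members were called higher and 0 lower, and Aim2 kept its side of the threshold. The log2 fold change ranged from -0.18 to -0.00 for Aim2 (adjusted p 0.118 to 0.977), from 3.69 to 4.61 for Ifi204 and from 3.48 to 5.54 for Ifi207. Over all genes, the calls numbered 3845 higher and 3728 lower with the replicate block and 2078 to 2939 higher and 2007 to 2779 lower without 1 library. With the replicate block the higher calls were 10 in the AIM2 list, 13 in the DNA sensing list, 57 in the interferon response list and 8 in the p53 list, and no count given here moved by over 1.5 times. In the interferon signalling list, lower calls numbered 2 to 4 without 1 library; the cause was not tested. With the longest transcript as the length, control levels were 78.6 for Mndal, 63.1 for Ifi203, 8.77 for Aim2, 7.10 for Ifi208, 1.96 for Ifi213 and 0.613 CPM per kb for Ifi214. Lengths from exon bases of no other gene, an alternative chosen after seeing the data, gave 45.9 CPM per kb for Mndal and 35.5 for Ifi203. Depth limits Ifi204 and Ifi207, with 18 and 5 counts over the controls.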
